A study of Mus musculus with 12 samples.

Results

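Cells dispose of superoxide and peroxides through a small set of enzymes, and the transcripts of 10 of their genes were followed here through the dark zone and light zone of the splenic germinal center. The set holds the 6 peroxiredoxins Prdx1 to Prdx6, the cytosolic thioredoxin Txn1, its reductase Txnrd1, and the superoxide dismutases Sod1 and Sod2. Members were found by gene symbol, and all 10 were among the 12212 symbols listed for each library. They were chosen by their role, but the choice was prompted by the CPM of Prdx6 in the light and dark zone libraries of untreated mice, so that comparison is described below without a test.

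The cells came from spleens of NZBWF1/J mice, an F1 hybrid prone to lupus-like autoimmunity, and 1000 cells were sorted for each library. The 4 groups of 3 libraries were light zone cells of treated mice, light zone cells of control mice, dark zone cells of treated mice and dark zone cells of control mice. Treated mice received 6 doses each of 200 ug CTLA4-Ig, a fusion protein that blocks costimulation through CD28, and 250 ug anti-CD40L, an antibody to the T cell ligand of CD40, within 2 weeks from 18 weeks of age. Control mice of the same strain were untreated, and no age is given for them. It is also not stated whether each library is a separate mouse, so p-values measure only the spread between these libraries. All libraries hold amplified cDNA, and a lower level can come from fewer cells with the transcript or from less RNA per cell, which cannot be told apart.

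Peroxiredoxins reduce hydrogen peroxide and organic peroxides through a reactive cysteine. The 2-Cys members are returned to the reduced form mainly by thioredoxins, in the cytosol by Txn1 and in mitochondria by another thioredoxin, and by disulfide isomerases for Prdx4 in the endoplasmic reticulum. Thioredoxin reductase in turn reduces thioredoxin with electrons from NADPH, and the 1-Cys member Prdx6 uses glutathione. Superoxide dismutases act upstream of both by turning superoxide into hydrogen peroxide. Prdx1 and Txnrd1 are classical targets of the transcription factor NRF2, which binds antioxidant response elements in promoters.

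Promoter windows of 300 bases, from 250 bases before to 50 after the annotated start, were available for 9 of the 10 members from RefSeq on GRCm38.p6, the assembly behind mm10. The core of the antioxidant response element, TGACNNNGC on either strand, occurred in 4071 of 32851 mouse windows (12.4%), and among the members in Prdx1, Sod1 and the second of 3 annotated Txnrd1 starts. The Prdx1 and Txnrd1 windows are shown with the core in capitals, as it reads on the strand of the gene, and Txn1 is shown because its transcript level was low in the same libraries as Prdx1 while its window held no match. The Prdx1 window lies at chr4:116685349-116685648 on the plus strand, the Txnrd1 window at chr10:82858956-82859255 on the plus strand and the Txn1 window at chr4:57956362-57956661 on the minus strand.
Prdx1: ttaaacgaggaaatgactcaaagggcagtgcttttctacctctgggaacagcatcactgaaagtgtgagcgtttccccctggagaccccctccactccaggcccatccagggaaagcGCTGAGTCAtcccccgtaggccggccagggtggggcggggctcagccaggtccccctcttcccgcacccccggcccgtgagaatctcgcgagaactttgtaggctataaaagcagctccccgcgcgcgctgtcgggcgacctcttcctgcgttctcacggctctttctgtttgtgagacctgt
Txnrd1: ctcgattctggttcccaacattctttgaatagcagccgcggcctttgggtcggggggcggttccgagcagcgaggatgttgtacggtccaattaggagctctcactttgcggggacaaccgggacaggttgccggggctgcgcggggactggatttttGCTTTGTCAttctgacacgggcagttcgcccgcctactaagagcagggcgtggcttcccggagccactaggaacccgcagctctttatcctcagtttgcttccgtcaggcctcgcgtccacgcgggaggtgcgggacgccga
Txn1: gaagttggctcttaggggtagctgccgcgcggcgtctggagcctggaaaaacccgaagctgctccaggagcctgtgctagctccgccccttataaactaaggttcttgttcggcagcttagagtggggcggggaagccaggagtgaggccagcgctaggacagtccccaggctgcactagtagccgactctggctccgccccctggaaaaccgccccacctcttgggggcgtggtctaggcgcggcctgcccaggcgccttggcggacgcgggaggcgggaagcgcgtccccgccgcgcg
The Prdx1 match began 133 bases before the start and overlapped a match to the AP-1 site TGAGTCA, of which the window held 2. That site occurred in 1709 windows (5.2%), and in no other member's window. The Txnrd1 match began 92 bases before its start. These matches are descriptions of the letters and not of binding.

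Library totals were 16032746 to 26837714 counts. Levels are given in CPM, for which each count was divided by the library total after adjustment with edgeR's TMM factors. Germinal center B cell markers such as Cd79a and Bcl6 were detected in every group. The light zone marker Cd83 was at 617 to 755 CPM in treated light zone libraries against 143 to 217 in treated dark zone libraries, and at 361 to 655 CPM in control light zone libraries against 52.5 to 309 in control dark zone libraries. Of the 6 treated libraries, 3 stood apart: dark zone treated libraries 1 and 2 and light zone treated library 2 had first principal component scores of 146.6 to 165.7, against -102.9 to 20.4 in the other 9. The list of 11 germinal center genes summed to 6616 to 7486 CPM in these 3 libraries, against 9057 to 12540 CPM in the other 9. From that list, Rgs13 was at 166 to 254 CPM against 1500 to 2510, and Cd79a at 1690 to 2130 against 2190 to 3280. Bcl6 overlapped, at 59.1 to 92.0 against 57.2 to 265 CPM. In the 3 libraries the macrophage list of 10 genes summed to 85.6 to 225 CPM, against 13.0 to 54.2 in the other 9, and its gene Lyz2 was at 13.7 to 17.9 CPM against 0.103 to 0.523. Of 10 erythroid genes 7 were listed, and they summed to 73.4 to 281 CPM in the 3 libraries and to 3.07 to 1392 CPM, with a median of 7.13, in the other 9. Actb was at 12300 to 23300 CPM against 2610 to 4250, and Tmsb4x at 5090 to 6170 CPM against 21900 to 29900. Transcripts under 1000 bases took 15.5 to 17.1% of counts in the 3 libraries against 25.3 to 31.9% in the other 9. The part of these differences in the results below was not tested, and log2 differences in which treated libraries enter are given over all 12 libraries and over the other 9, where a single treated dark zone library is left and is assumed to vary like the others.

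Per kilobase of transcript, Prdx1 was the most abundant member, with a median of 3600 CPM per kilobase over the 12 libraries. Txn1 followed at 1200, Prdx4 at 286, Prdx3 at 160, Prdx2 at 154, Prdx5 at 68.7, Sod1 at 65.6, Prdx6 at 53.0, Sod2 at 15.2 and Txnrd1 at 6.98 CPM per kilobase. Prdx1 exceeded Txn1, and Prdx4 exceeded Prdx3, in 11 of 12 libraries. Txn1 exceeded Prdx4, Prdx2 exceeded Prdx5 and Prdx6 exceeded Sod2 in all 12. These orders depend on the transcript length taken for each gene, such as 5861 bases for Sod2 and 2387 for Prdx6. Prdx3 and Prdx2 were in that order in 6 of 12 libraries, Prdx5 and Sod1 in 8, Sod1 and Prdx6 in 7 and Sod2 and Txnrd1 in 9, so these neighbours were not separated beyond their spread. Together the members took 0.29 to 0.407% of counts in the 3 libraries that stood apart and 0.817 to 1.22% in the other 9. Every member was well above the detection limit, since the lowest count of any of them in a library was 259, for Txnrd1.

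**Figure D1:**
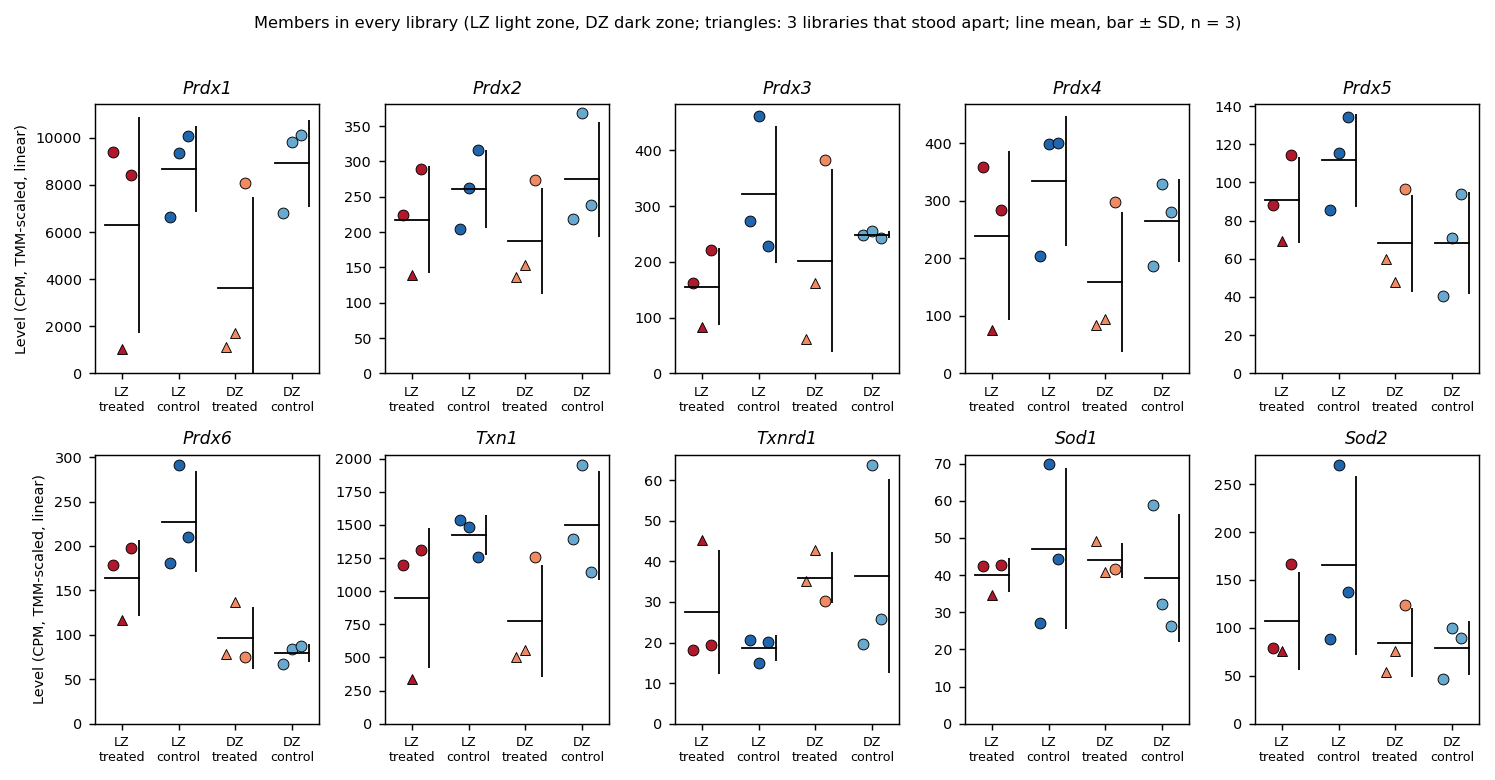
Level of each member (CPM, TMM-scaled, linear axis from 0) in every library, with the treated group left of its control in each zone; lines are means and bars ± SD (n = 3), and triangles are the 3 libraries that stood apart. Prdx1, Prdx2, Prdx4 and Txn1 are lowest in the triangles, and Prdx6 is higher in the light zone than in the dark zone of control mice.

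Prdx1 and Prdx2 encode the cytosolic 2-Cys peroxiredoxins. Prdx1 (mm10 chromosome 4, 116685544 to 116700822) was at 1103, 1703 and 8073 CPM in treated dark zone libraries, against 6793, 9839 and 10140 CPM in control dark zone libraries. It was at 1032, 8434 and 9416 CPM in treated light zone libraries, against 6626, 9356 and 10090 CPM in control light zone libraries. The low treated values were those of the 3 libraries that stood apart, and the other treated libraries lay within the control range of 6626 to 10140 CPM. The difference in the dark zone was -1.30 on the log2 scale (SE 0.82, edgeR adjusted p = 0.558), and -0.13 (SE 0.29) over the 9 other libraries. In the light zone it was -0.47 (SE 0.81, edgeR adjusted p = 0.904), and 0.05 (SE 0.23) over the 9 libraries.

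Prdx2 (chromosome 8, 84969587 to 84974834) is the peroxiredoxin best known from red blood cells. It was at 136.3, 153.1 and 273.4 CPM in treated dark zone libraries against 218.7, 237.6 and 367.8 CPM in control dark zone libraries. Treated light zone libraries had 139.3, 224.1 and 289.2 CPM against 204.7, 262.3 and 315.4 CPM in control light zone libraries. Groups overlapped in both zones, and the log2 difference was -0.55 (SE 0.39, edgeR adjusted p = 0.585) in the dark zone and -0.26 (SE 0.39, edgeR adjusted p = 0.885) in the light zone, against 0.01 (SE 0.38) and -0.01 (SE 0.30) over the 9 libraries. Control dark zone library 1 held 524 CPM of the hemoglobin gene Hba-a1, with Prdx2 at 218.7 CPM. The part of red blood cell RNA in the Prdx2 values was not tested. Exons of Prdx2 share 177 bases with Rnaseh2a and 173 with Junb on the opposite strand, and the libraries keep no strand, so its level can include their reads.

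Prdx3 (chromosome 19, 60864051 to 60874556) encodes the mitochondrial peroxiredoxin. In the light zone it was at 83.5, 161.2 and 221.0 CPM in treated libraries against 228.9, 272.4 and 461.1 CPM in control libraries. It was the member with no overlap between treated and control light zone libraries, where 5.49% of all 12081 tested genes were lower without overlap. The log2 difference of -1.05 (SE 0.59) did not pass the threshold (edgeR adjusted p = 0.702), and was -0.74 (SE 0.32) without the 3 libraries (edgeR adjusted p = 0.686). In the dark zone the treated libraries spread from 61.7 through 161.4 to 382.8 CPM, against 242.7, 247.6 and 255.9 CPM in control libraries. The treated libraries there lay on both sides of the narrow control range, with a log2 difference of -0.30 (SE 0.59, edgeR adjusted p = 0.852) that was 0.64 (SE 0.39) over the 9 libraries.

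Prdx4 (chromosome X, 155323918 to 155340754) acts in the endoplasmic reticulum, where it takes part in the oxidative folding of secreted proteins. It was at 83.4, 94.3 and 298.3 CPM in treated dark zone libraries against 186.2, 281.0 and 329.3 CPM in control dark zone libraries. Treated light zone libraries held 75.7, 284.7 and 358.0 CPM against 203.8, 398.0 and 400.6 CPM in control light zone libraries. Its 3 lowest values were again the libraries that stood apart, and the log2 difference in the dark zone was -0.74 (SE 0.63, edgeR adjusted p = 0.633), against 0.18 (SE 0.46) over the 9 libraries. For the light zone it was -0.48 (SE 0.63, edgeR adjusted p = 0.872), and -0.04 (SE 0.37) over the 9. A list of plasma cell genes, of which 8 of 9 were listed, summed to 1980 to 3328 CPM in the 3 libraries and to 8223 to 13700 CPM in the other 9, with Jchain at 1110 to 2150 against 6200 to 11300 CPM. Its part in the Prdx4 values was not tested.

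Prdx5 (chromosome 19, 6906697 to 6910106), the atypical 2-Cys peroxiredoxin found in several compartments, was at 69.5, 88.2 and 114.5 CPM in treated light zone libraries against 85.3, 115.2 and 134.0 CPM in control light zone libraries. In the dark zone it was at 47.9, 60.0 and 96.4 CPM in treated libraries against 40.6, 70.8 and 93.8 CPM in control libraries. Groups overlapped in both zones, with a log2 difference of -0.30 (SE 0.42, edgeR adjusted p = 0.879) in the light zone and -0.01 (SE 0.42, edgeR adjusted p = 0.996) in the dark zone, against -0.13 (SE 0.41) and 0.51 (SE 0.50) over the 9 libraries. Prdx5 shares 409 exon bases with Trmt112 on the opposite strand, so that reads of these genes cannot be told apart there.

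Prdx6 (chromosome 1, 161240112 to 161251219) encodes the 1-Cys peroxiredoxin, which also has phospholipase activity. In control mice it was at 181.2, 209.8 and 291.2 CPM in light zone libraries, against 67.6, 83.9 and 87.1 CPM in dark zone libraries. Every control light zone library was above every control dark zone library, and the means of 227.4 ± 57.1 and 79.5 ± 10.5 CPM (SD, n = 3 each) differed 2.86-fold, or by 1.52 on the log2 scale (SE 0.36). Of all tested genes 4.47% were higher without overlap in this comparison, which is the one that brought Prdx6 into the set, so its difference is given as a description.

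The treated libraries were not the ones that prompted that choice, but earlier results of these data were known when it was made. The treated libraries therefore give no fully independent check. In them Prdx6 was at 116.4, 178.6 and 197.7 CPM in the light zone against 74.7, 78.4 and 136.6 CPM in the dark zone. The groups overlapped only through dark zone treated library 2 (136.6 CPM) and light zone treated library 2 (116.4 CPM), both among the 3 that stood apart. The difference of light minus dark zone was 0.77 on the log2 scale (SE 0.35), with an unadjusted p of 0.0529 and an adjusted p of 1.0 by edgeR's quasi-likelihood test. Without the 3 libraries it was 1.35 (SE 0.38), from light zone libraries at 178.6 and 197.7 CPM and a single dark zone library at 74.7 CPM. Treatment itself left Prdx6 with overlapping groups: the log2 difference was -0.47 (SE 0.35, edgeR adjusted p = 0.779) in the light zone and 0.28 (SE 0.35, edgeR adjusted p = 0.757) in the dark zone, against -0.26 (SE 0.27) and -0.08 (SE 0.34) over the 9 libraries.

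Prdx6 was the member whose zones did not overlap in control mice, and in treated mice no member had zones without overlap, where 2.24% of all tested genes were higher and 3.55% lower without overlap. In control mice Sod2, at 88.8, 137.8 and 269.5 CPM in the light zone against 47.0, 89.5 and 100.3 CPM in the dark zone, had a log2 difference of 1.07 (SE 0.54), and Prdx5 one of 0.70 (SE 0.42), both with overlapping groups. Catalase, Cat, which also removes hydrogen peroxide and is no member, ran the other way in control mice, at 80.2, 80.4 and 88.6 CPM in the light zone against 159.7, 159.9 and 197.7 CPM in the dark zone, where 5.6% of tested genes were lower without overlap. In treated mice Cat was at 89.6, 92.0 and 113.5 CPM in the light zone against 94.2, 127.6 and 144.6 CPM in the dark zone, and its difference of -0.31 (SE 0.28) did not pass the test (edgeR adjusted p = 1.0) and was 0.12 over the 9 libraries.

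The genes with profiles closest to Prdx6 were sought over the 12 libraries by the root mean square distance between log2 CPM profiles, each centred on its own mean. They were Hid1 (0.326), Pla2g12a (0.361), Sirpb1b (0.367), Sssca1 (0.387) and Arfgef3 (0.393), against a median distance of 1.345 over all tested genes. Sssca1, for example, averaged 135 ± 58.2 CPM in treated and 175 ± 58.9 CPM in control light zone libraries, and 65.9 ± 11.7 CPM in treated and 69.3 ± 14.2 CPM in control dark zone libraries (SD, n = 3 each). Among the members Sod2 (0.527) and Prdx5 (0.533) lay closest to Prdx6, and Prdx1 (1.249) lay farthest; a gene at the same level in all libraries would be at 0.673, the spread of Prdx6 itself.

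Txn1 (chromosome 4, 57943373 to 57956411) encodes the cytosolic thioredoxin, the electron donor of Prdx1 and Prdx2. It was at 505.4, 558.9 and 1260 CPM in treated dark zone libraries against 1146, 1395 and 1949 CPM in control dark zone libraries. In the light zone it was at 338.7, 1196 and 1309 CPM in treated libraries against 1256, 1487 and 1538 CPM in control libraries. The 3 low values were the same libraries as for Prdx1 and Prdx4, and the groups overlapped through the remaining treated libraries. The log2 difference was -0.95 (SE 0.51, edgeR adjusted p = 0.529) in the dark zone and -0.59 (SE 0.51, edgeR adjusted p = 0.807) in the light zone, and over the 9 libraries -0.24 (SE 0.30) and -0.18 (SE 0.23).

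Txnrd1 (chromosome 10, 82833951 to 82897712), the cytosolic thioredoxin reductase, did not share that pattern. It was at 18.1, 19.4 and 45.2 CPM in treated light zone libraries against 14.9, 20.1 and 20.7 CPM in control light zone libraries. In the dark zone it was at 30.1, 35.1 and 42.7 CPM in treated libraries against 19.7, 25.7 and 63.7 CPM in control libraries. The libraries that stood apart, at 35.1, 42.7 and 45.2 CPM, were above all others except control dark zone library 2, and neither treatment difference passed the test (log2 difference 0.57, SE 0.58, edgeR adjusted p = 0.837 in the light zone, and -0.01, SE 0.58, edgeR adjusted p = 0.994 in the dark zone). Over the 9 libraries the differences were 0.03 (SE 0.64) in the light zone and -0.26 (SE 0.82) in the dark zone, and the first was 0.02 without light zone treated library 2 alone. In control mice the light minus dark zone difference was -0.97 (SE 0.58), and -0.29 without control dark zone library 2.

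Sod1 (chromosome 16, 90220754 to 90226329), the cytosolic copper and zinc enzyme, ranged from 26.4 to 70.0 CPM over the 12 libraries. It was at 34.6, 42.4 and 42.6 CPM in treated light zone libraries against 27.01, 44.4 and 70.0 CPM in control light zone libraries. In the dark zone it was at 40.8, 41.7 and 49.3 CPM in treated libraries against 26.4, 32.3 and 58.8 CPM in control libraries. The treated values lay inside the control range in both zones, and the log2 difference was -0.24 (SE 0.47, edgeR adjusted p = 0.911) in the light zone and 0.17 (SE 0.47, edgeR adjusted p = 0.902) in the dark zone, against -0.135 (SE 0.56) and 0.10 (SE 0.71) over the 9 libraries. Sod2 (chromosome 17, 13006846 to 13040063), the mitochondrial manganese enzyme, was at 75.5, 79.3 and 166.5 CPM in treated light zone libraries, against the control light zone values given above, with a log2 difference of -0.63 (SE 0.53, edgeR adjusted p = 0.803). In the dark zone Sod2 was at 53.9, 75.5 and 124.0 CPM in treated libraries, with a log2 difference of 0.10 (SE 0.53, edgeR adjusted p = 0.953). The treated and control groups of Sod2 overlapped in each zone, and over the 9 libraries the differences were -0.42 (SE 0.59) in the light zone and 0.67 (SE 0.71) in the dark zone.

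Over the whole table, edgeR's quasi-likelihood test called 0 of 12081 genes (0.0%) at an adjusted p under 0.05 in any of the 5 comparisons, members included. At an unadjusted p under 0.05 it had 889 genes for treatment in the light zone, 1075 for treatment in the dark zone, 249 for zone in treated mice, 595 for zone in control mice and 275 for the interaction. DESeq2 called 223, 73, 1, 113 and 16 genes in these comparisons (1.83%, 0.598%, 0.00819%, 0.925% and 0.131% of 12212), among them no member for treatment, for zone in treated mice or for the interaction. In the edgeR fit 1 member was higher and 9 lower after treatment in the light zone. The median log2 difference was -0.47 against 0.10 over all tested genes. Over the 9 libraries 2 were higher and 8 lower, with a median of -0.13 against -0.04 over all tested genes. In the dark zone 3 were higher and 7 lower, with a median of -0.16 against 0.06 over all tested genes. There 6 were higher and 4 lower over the 9 libraries, with a median of 0.06 against -0.11 over all tested genes. In treated mice the light zone exceeded the dark zone for 7 members and fell below it for 3. The median was 0.32 against 0.05 over all tested genes, and over the 9 libraries 0.02 against 0.09. Total-count scaling was set against TMM scaling by differences between group means of log2 CPM, not by the edgeR fit. By that measure 5 members were higher and 5 lower for treatment in the dark zone with either scaling. Total-count scaling turned Sod1 from -0.141 to 0.101 for treatment in the light zone. Between zones of treated mice it turned Prdx2 from 0.221 to -0.009 and Txn1 from 0.191 to -0.038. It moved the median of all genes by 0.424 for treatment in the dark zone and 0.239 for treatment in the light zone. For zone in treated mice the shift was -0.224, so directions near 0 are relative to the scaling used.

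**Figure D2:**
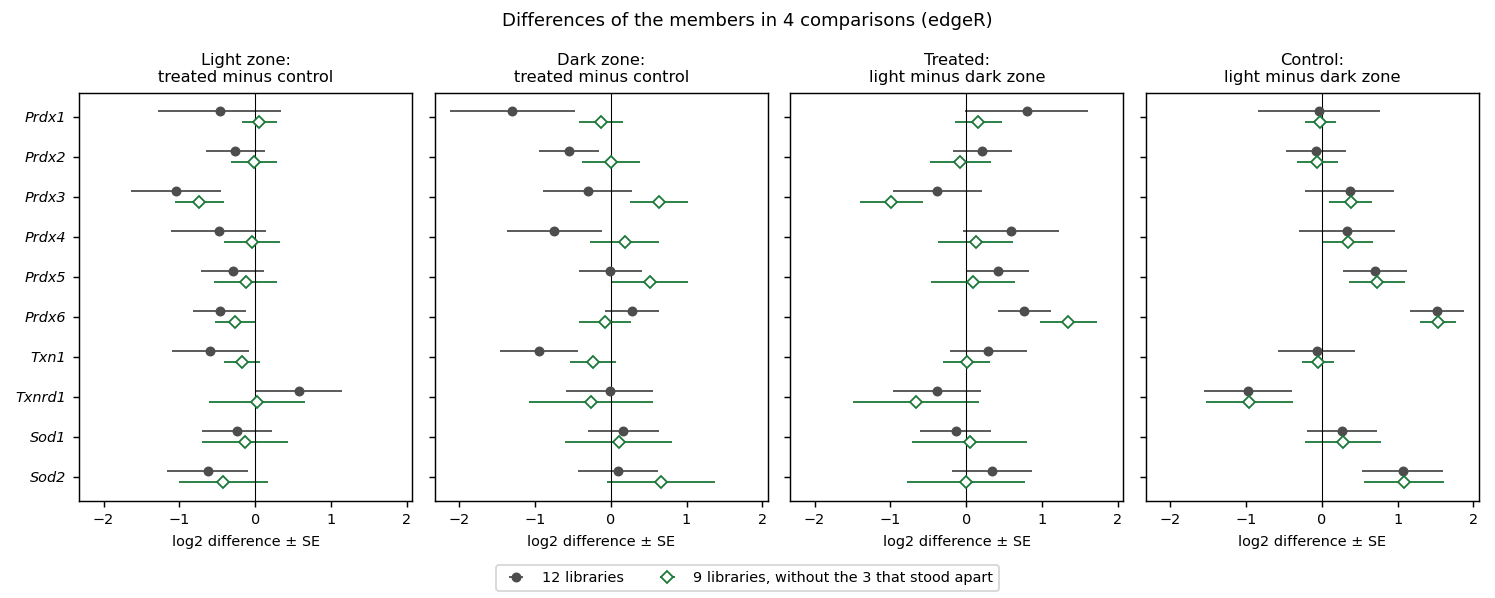
Log2 difference ± SE of each member (edgeR) in 4 comparisons, from all 12 libraries (filled circles) and from the 9 left without the libraries that stood apart (open diamonds). Prdx1 after treatment in the dark zone is at -1.30 with 12 libraries and -0.13 with 9. Prdx6 between zones is at 1.52 in control mice, and in treated mice at 0.77 with 12 libraries and 1.35 with 9. The 9 hold a single treated dark zone library.

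A fit with library weights estimated from the spread (limma-voom with sample weights) called 3178 genes (26.3%) for treatment in the dark zone. Of these 1258 were higher (10.4%) and 1920 lower (15.9%). Among the lower were 4 of the 10 members: Prdx1 (log2 difference -2.64, adjusted p = 0.00169), Txn1 (-1.31, adjusted p = 0.00461), Prdx4 (-1.50, adjusted p = 0.0108) and Prdx2 (-0.79, adjusted p = 0.03). These are the members whose 3 lowest libraries were those that stood apart, as were 16.7% of all tested genes, with 13.7% highest in all 3. Scaled by total counts instead, Prdx1, Prdx4 and Txn1 were lowest in all 3, as were 1212 of 12081 tested genes (10%). With that scaling 3129 genes (25.9%) and no member were highest in all 3, and Prdx2 overlapped the other 9. Both directions together held 35.9% of all tested genes. The weighted fit called 1 gene (0.00828%), no member, for zone in control mice, and no gene in the other comparisons. With 9 libraries the dark zone differences of these 4 members were -0.13 for Prdx1, -0.24 for Txn1, 0.18 for Prdx4 and 0.01 for Prdx2. With only dark zone treated library 3 left out, edgeR gave -2.67 for Prdx1, -1.49 for Txn1, -1.58 for Prdx4 and -0.92 for Prdx2. Which libraries the weights favoured was not tested.

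Within a library, shares and ratios between members do not depend on the scaling of that library. Prdx1 made up 57.7 to 64.9% of the 6 peroxiredoxins per kilobase in the 3 libraries that stood apart and 78.7 to 86.0% in the other 9. Prdx6 made up 4.22 to 6.25% in the 3 libraries. Among the other 9 its share was 1.54 and 1.85% in treated and 1.64 to 2.36% in control light zone libraries. In the dark zone it was 0.716% in the single treated library left and 0.685 to 0.804% in control libraries. The contrast in control mice rests on the Prdx6 values that prompted its choice. The Prdx2 share was 8.92 to 11.9% in the 3 libraries and 3.07 to 4.78% in the other 9.

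**Figure D3:**
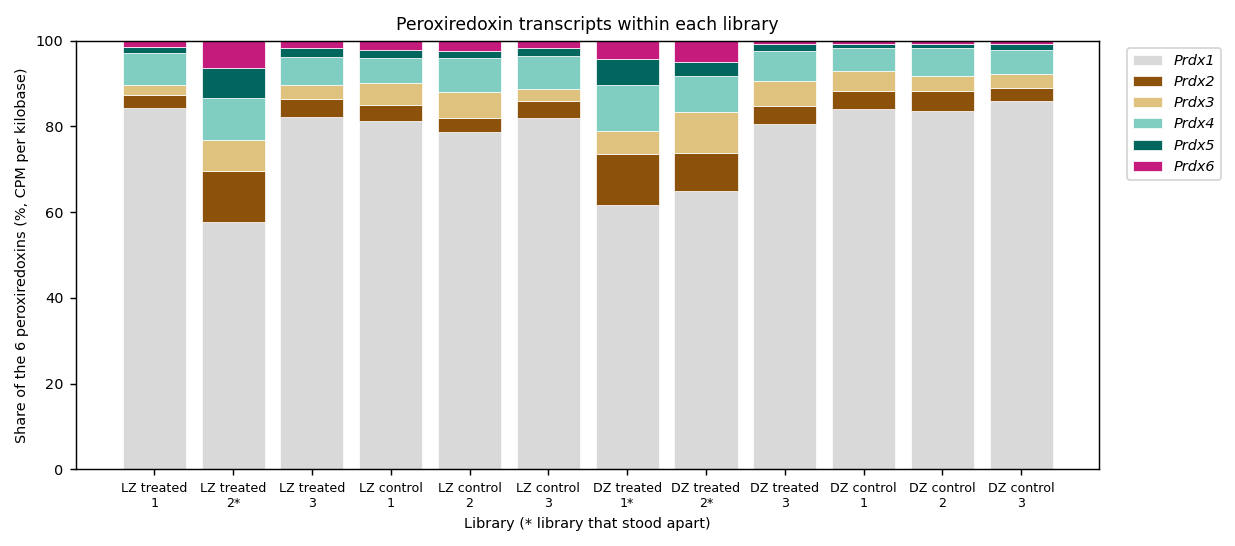
Share (%) of each peroxiredoxin in the summed CPM per kilobase of all 6, by library, with treated libraries left of control libraries in each zone and asterisks on the libraries that stood apart. Prdx1 takes 57.7 to 64.9% there and 78.7 to 86.0% in the other 9 libraries.

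Ratios of CPM, compared between libraries only, separated the same libraries. Txnrd1 to Txn1 was 0.0695 to 0.133 in the 3 libraries that stood apart and 0.00999 to 0.0327 in the other 9. Prdx6 to Prdx1 was 0.0711 to 0.113 in the 3 libraries. In control libraries Prdx6 to Prdx1 was 0.0208 to 0.0311 in the light zone and 0.00853 to 0.00995 in the dark zone, without overlap, a contrast that rests on the same Prdx6 values as above. Sod2 to Sod1 overlapped between treated and control libraries of each zone and between the zones of each treatment, at 1.87 to 3.91 in treated and 3.1 to 3.85 in control light zone libraries, and at 1.09 to 2.97 in treated and 0.798 to 3.4 in control dark zone libraries.

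**Figure D4:**
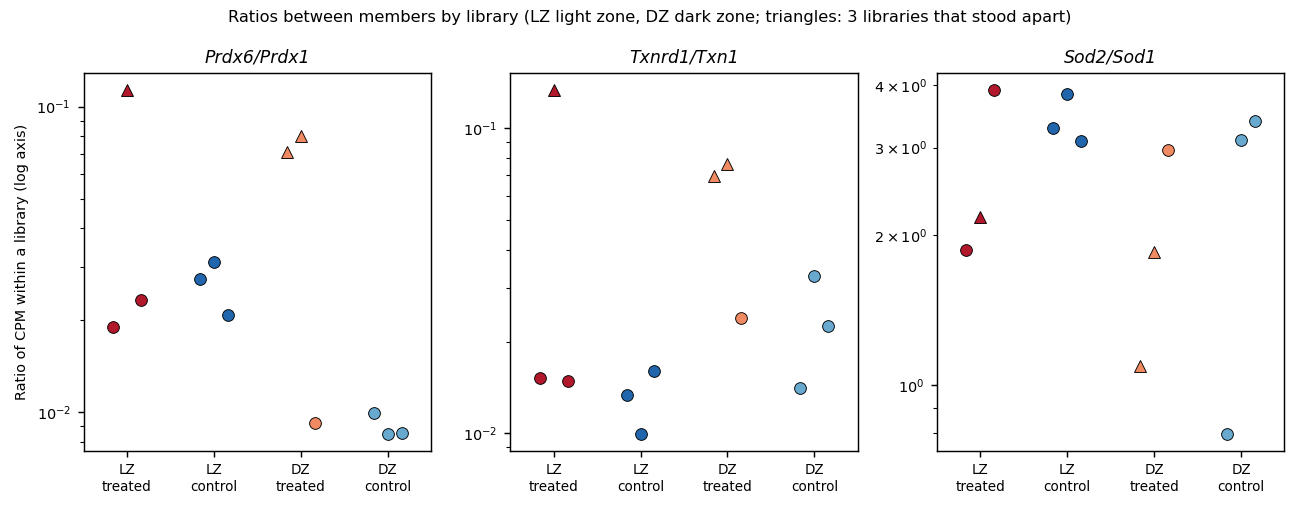
Ratio of CPM between 2 members within each library (log axis), by group with treated left of control in each zone and triangles for the libraries that stood apart. Txnrd1 to Txn1 is 0.0695 to 0.133 in the triangles and at most 0.0327 in the circles, and Prdx6 to Prdx1 splits control light zone from control dark zone libraries.

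The neighbouring pathways were examined through 5 lists, and no gene of any list passed edgeR's threshold in any comparison. Gclc, Gclm and Srxn1 stand on both the NRF2 list and another. Of the thioredoxin relatives, 18 of 19 were tested; 10 were higher and 8 lower after treatment in the light zone, and 9 higher and 9 lower in the dark zone. Over the 9 libraries 17 were tested, with 8 higher and 9 lower in the light zone and 9 higher and 8 lower in the dark zone. Txndc17, a small thioredoxin-like reductase, was at 89.0, 103.7 and 189.6 CPM in treated dark zone libraries against 229.0, 256.3 and 504.1 CPM in control dark zone libraries (log2 difference -1.37, SE 0.55, edgeR adjusted p = 0.528), and was -0.79 over the 9 libraries. In that comparison 11.2% of all genes were lower without overlap. Txndc5, a disulfide isomerase of the endoplasmic reticulum, was at 113.7, 260.8 and 402.9 CPM in treated against 66.2, 85.7 and 116.8 CPM in control dark zone libraries, with overlap, and its log2 difference of 1.53 (SE 0.59, edgeR adjusted p = 0.528) was 0.36 over the 9 libraries. Sesn3, a sestrin, was at 0.361, 3.98 and 16.3 CPM in treated light zone libraries against 18.7, 29.6 and 49.7 CPM in control light zone libraries (log2 difference -2.24, SE 1.014, edgeR adjusted p = 0.674), and the difference was -3.89 over the 9 libraries. Sesn3 was also lower without overlap in treated light zone than in treated dark zone libraries, where it was at 18.1, 20.1 and 34.7 CPM (log2 difference -1.81, SE 0.999, edgeR adjusted p = 1.0, with 3.55% of all genes lower without overlap), and -3.98 over the 9 libraries.

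In the glutathione list 21 of 24 genes were tested; 8 were higher and 13 lower after treatment in the light zone, and 10 higher and 11 lower in the dark zone. Over the 9 libraries 20 were tested, with 6 higher and 14 lower in the light zone and 12 higher and 8 lower in the dark zone. The mitochondrial glutaredoxin Glrx5 was at 111.4, 148.1 and 149.0 CPM in treated against 68.3, 91.9 and 108.7 CPM in control dark zone libraries, without overlap (log2 difference 0.60, SE 0.32, edgeR adjusted p = 0.528), where 12.5% of all genes were higher without overlap, and was 0.74 over the 9 libraries. Gpx4, which reduces lipid peroxides, was at 132.4, 135.1 and 256.1 CPM in treated against 272.4, 292.2 and 314.9 CPM in control dark zone libraries (log2 difference -0.75, SE 0.41, edgeR adjusted p = 0.529), and its difference was -0.18 over the 9 libraries. In the light zone the log2 difference was -0.86 for Glrx2 and -1.21 for Gstt2 (edgeR adjusted p = 0.725 and 0.674), and over the 9 libraries -0.70 for Glrx2 and -0.93 for Gstt2. Between zones of treated mice it was 0.41 for Gpx1 and 0.43 for Gstp1, the transferase that works with Prdx6 (edgeR adjusted p = 1.0 for each), and over the 9 libraries 0.195 for Gpx1 and 0.47 for Gstp1.

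Among 8 of 10 other superoxide and peroxide enzymes tested, 6 were higher and 2 lower after treatment in the light zone, and 3 higher and 5 lower in the dark zone, against 6 and 2, and 5 and 3, over the 9 libraries. Cat was lower without overlap after treatment in the dark zone, as were 11.2% of all genes, with the values given above. Its log2 difference was -0.50 (SE 0.28, edgeR adjusted p = 0.533), and -0.86 over the 9 libraries. In the light zone Cat was higher without overlap (log2 difference 0.24, SE 0.28, edgeR adjusted p = 0.856), where 5.82% of all genes were, and was 0.30 over the 9 libraries. Ccs, Oxr1 and Oxsr1 had overlapping groups in the comparisons that named them.

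The list of NRF2 and its targets had 18 of 21 genes tested, with 12 higher and 6 lower after treatment in the light zone and 10 higher and 8 lower in the dark zone, and medians of 0.54 and 0.73. Over the 9 libraries the light zone had 8 higher and 10 lower, and the dark zone 11 higher and 7 lower. Medians were then -0.04 and 0.17, against -0.04 and -0.11 over all tested genes. The pentose phosphate enzyme Tkt was at 48.9, 201.8 and 239.8 CPM in treated against 0.759, 22.7 and 44.0 CPM in control dark zone libraries (log2 difference 2.86, SE 1.44, edgeR adjusted p = 0.528), and the highest 2 of these treated libraries were those that stood apart; over the 9 libraries the difference was 1.14. Nfe2l2, which encodes NRF2, was at 18.7, 23.2 and 24.2 CPM in treated light zone libraries against 29.95, 36.5 and 70.3 CPM in treated dark zone libraries. These groups did not overlap, and 3.55% of all genes were lower without overlap there. The log2 difference of Nfe2l2 was -1.05 (SE 0.50, edgeR adjusted p = 1.0), and -1.73 over the 9 libraries. The ferritin gene Ftl1 had overlapping groups.

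All 7 genes of the phagocyte NADPH oxidase, a source of superoxide, were tested. After treatment each zone had 6 higher and 1 lower. The median was 0.15 in the light zone and 0.40 in the dark zone, against 0.10 and 0.06 over all tested genes. Over the 9 libraries the light zone had 5 higher and 2 lower (median 0.09) and the dark zone 3 higher and 4 lower (median -0.01). The medians over all tested genes were then -0.04 and -0.11. In light against dark zone libraries of treated mice 6 were higher and 1 lower, with a median log2 difference of 0.51 against 0.05 over all tested genes, and 0.60 over the 9 libraries. The membrane subunit Cyba was at 316.6, 324.9 and 379.3 CPM in treated light zone libraries against 172.5, 231.7 and 243.7 CPM in treated dark zone libraries, without overlap (log2 difference 0.66, SE 0.29, edgeR adjusted p = 1.0), where 2.24% of all genes were higher without overlap, and was 0.91 over the 9 libraries. The cytosolic subunit Ncf1 was at 6.2, 28.96 and 98.3 CPM in treated light zone libraries against 5.63, 24.3 and 42.3 CPM in control light zone libraries, with overlap (log2 difference 0.88, SE 1.49, edgeR adjusted p = 0.9). Ncf1 is also expressed by macrophages, whose markers were high in the libraries that stood apart, and their part was not tested; over the 9 libraries the difference was -0.45. Rac2 had overlapping groups after treatment in the dark zone.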

How the data were processed

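Each library was sequenced from cDNA of 1000 sorted cells, amplified by SMART-Seq v4 and prepared by Nextera XT, per the labels' protocols. The submitters' processing notes name BWA and mm10; version, counting program and annotation are not stated there. Expected counts were deposited for each gene symbol without scaling, as values that are whole or lie midway between whole numbers. Midway values, which were rounded up, occurred in Prdx2, Prdx4 and Txnrd1; how they arose is not given, so for these genes the values may not be plain counts. Blank cells were read as 0. Prdx1, Prdx2, Txn1 and Sod1 have near-identical processed pseudogenes (at least 95% identity over 300 bases, blastn 2.17.0 against GENCODE M21 transcripts), which can split their reads.

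Testing used the quasi-likelihood method of edgeR 4.0.16 (R 4.3.3) after TMM scaling, on the 12081 genes, all members among them, that filterByExpr kept at a minimal count of 10 and total of 15. All 12 libraries entered 1 fit with a term per group, and two-sided p-values were Benjamini-Hochberg adjusted across these genes; calls needed an adjusted p under 0.05. The test was run on simulated counts, where a pass was required only with a smaller spread than the one fitted here. That check does not show how large a change the test could find in these data. Alternatives were RLE scaling, no filter, DESeq2 1.42.0, limma-voom (limma 3.58.1), a fit without or with a term for the 3 libraries that stood apart, replicate blocks, leaving out each library, and total-count scaling. Transcript lengths came from GENCODE M21, with a single coding transcript taken for each gene. Counting error alone was small: the lowest member count, 259 for Txnrd1, spans 13.1 to 16.8 CPM around 14.9 (95% exact Poisson interval); libraries carry no molecular identifiers, so this covers counting error only.

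Besides the members, the genes named were the 2 of each list with the smallest unadjusted p in each treatment comparison and in zone in treated mice (mean of at least 10 CPM), the 5 genes nearest Prdx6, and markers; some named by this rule are not reported here. The members and lists were chosen with earlier results of these data known.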

Additional observations from a re-analysis of the deposited data

How the results depend on the processing

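The count of genes called by edgeR was 0 in all 5 comparisons, and also 0 with RLE scaling, with no filter, without the 3 libraries that stood apart or with a term for them, and when any single library was left out (0 to 0). The replicate block by number, and a replicate block of zone pairs, also gave 0; same-numbered libraries correlated above 0.1 in 3 of 6 pairs and the best match was the same number in 2, so the numbers were not taken as pairs. Other tests called more: DESeq2 had 73 genes for treatment in the dark zone, 223 for treatment in the light zone, 1 for zone in treated mice, 113 for zone in control mice and 16 for the interaction, and limma-voom had 3178 for treatment in the dark zone and 1 for zone in control mice. The cause of the gap between tools was not tested. Numbers of genes whose groups did not overlap stayed within 1.5 times with total-count scaling.

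Member directions changed mostly with the 3 libraries. For treatment in the dark zone, leaving them out gave Prdx2 0.007, Prdx3 0.637, Prdx4 0.183, Prdx5 0.512 and Prdx6 -0.075, and a term for them gave Prdx1 0.058, Prdx3 0.434, Prdx4 0.283 and Prdx5 0.399; the replicate block by number gave Prdx5 0.001 and Txnrd1 0.123, and limma-voom gave Txnrd1 0.429 and Sod2 -0.227. For treatment in the light zone, leaving them out gave Prdx1 0.052. For zone in treated mice, leaving them out gave Prdx2 -0.077, Sod1 0.043 and Sod2 -0.001, a term for them gave Prdx1 -0.149, Prdx2 -0.073, Prdx4 -0.062 and Txn1 -0.33, and limma-voom gave Prdx3 0.653. For the interaction, leaving them out gave Prdx2 -0.018 and Prdx4 -0.225, a term for them gave Prdx1 -0.111, Prdx4 -0.394 and Txn1 -0.262, and limma-voom gave Prdx3 0.381, Prdx5 0.132 and Txnrd1 -0.191. The cause was not tested for these changes. 

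Leaving out single libraries turned the sign of members within these ranges: for treatment in the dark zone Prdx3 -1.156 to 0.126, Prdx5 -0.343 to 0.291, Prdx6 -0.059 to 0.435, Txnrd1 -0.312 to 0.665, Sod1 -0.051 to 0.583 and Sod2 -0.286 to 0.336; for treatment in the light zone Prdx1 -0.877 to 0.043 and Sod1 -0.521 to 0.158; for zone in treated mice Prdx2 -0.047 to 0.587, Prdx3 -0.813 to 0.476, Txn1 -0.008 to 0.832 and Sod2 -0.131 to 0.726; and for the interaction Prdx3 -1.174 to 0.109, Prdx4 -0.15 to 1.098, Prdx5 -0.588 to 0.045 and Txnrd1 -0.093 to 0.884. Prdx6 between zones kept its sign, at 1.298 to 1.655 in control mice and 0.603 to 1.098 in treated mice. The control groups of Prdx6 did not overlap and had prompted its choice, so leaving out single libraries was no check of the sign there. For zone in control mice the sign turned for Prdx1 (-0.201 to 0.124), Prdx2 (-0.234 to 0.193), Txn1 (-0.228 to 0.168) and Sod1 (-0.132 to 0.685). The lowest count of any member was 259, but without molecular identifiers it does not show how many molecules were sampled.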
